A study of Mus musculus with 55 samples.

Results

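Wnt targets of liver zonation are described here as 9 listed genes, Axin2, Lgr5, Tbx3, Nkd1, Rnf43, Znrf3, Notum, Sp5 and Lect2, out of 24475 gene symbols in a table of liver read counts. The list was chosen with earlier results of these data known. All 9 had a row, and all 9 passed the filter on low counts that left 13311 genes for testing. The libraries came from 55 male mice, 1 liver each, in 6 groups of strain by vector. OTC mice (B6EiC3Sn a/A-Otcspf-ash/J) carry the sparse-fur ash allele of Otc, the gene of the urea cycle enzyme ornithine transcarbamylase, and WT mice were B6EiC3SnF1/J. An adeno-associated virus, given at week 0 to mice 4 months old, carried a hairpin against Gls2 (liver glutaminase, sh-Gls2), a hairpin against Glud1 (glutamate dehydrogenase, sh-Glud1) or a scrambled hairpin (control). There were 10 OTC sh-Gls2, 8 OTC sh-Glud1, 8 OTC control, 10 WT sh-Gls2, 9 WT sh-Glud1 and 10 WT control livers. Every group had received virus and ate a diet with 40% protein from week 2 until livers were taken at week 5, so no group was without virus or on ordinary chow. The series addresses whether lowering enzymes that release ammonia changes the disease of mice with a defective urea cycle.

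Hepatocytes differ along the path of blood from the portal tract to the central vein. Endothelial cells of the central vein secrete Wnt proteins and the Wnt amplifier Rspo3. The signal stops the destruction complex from degrading beta-catenin, which then enters the nucleus of nearby hepatocytes and switches on genes with TCF proteins. Many of the genes switched on encode brakes on the same signal, so they serve as readouts of it. Axin2 is a scaffold of the destruction complex, Nkd1 acts on Dishevelled, Rnf43 and Znrf3 are membrane ubiquitin ligases that remove Frizzled receptors, and Notum is a secreted enzyme that takes the lipid off Wnt proteins. Lgr5 is a receptor for R-spondins, and Tbx3 and Sp5 are transcription factors. Lect2 is a protein that hepatocytes secrete and a known target of beta-catenin in liver. The same signal sustains the pericentral enzyme glutamine synthetase (Glul), which captures ammonia.

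The genes lie on 6 chromosomes of GRCm38 in the GENCODE M21 annotation. Axin2 (chr11:108920349-108950783, plus strand), Rnf43 (chr11:87662722-87735539, plus), Znrf3 (chr11:5276324-5444847, minus) and Notum (chr11:120653788-120661175, minus) share chromosome 11. Lgr5 lies at chr10:115450311-115587780 (minus), Tbx3 at chr5:119670669-119684724 (plus) and Nkd1 at chr8:88521354-88594884 (plus). Sp5 lies at chr2:70474923-70477729 (plus) and Lect2 at chr13:56542464-56548502 (minus). Exons of antisense genes overlap exons of Axin2 over 209 bases, of Tbx3 over 115 bases and of Notum over 708 bases (Notumos) and 210 bases (Myadml2os). The library kit keeps the strand, but the counting setting was not given in the sources used here, so reads of these 3 genes and of their antisense partners may not have been told apart.

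RefSeq promoter windows of GRCm38.p6, from 250 bases before to 50 bases after each annotated start, were found for 5 of the 9 genes (Axin2, Nkd1, Rnf43, Sp5 and Lect2; Rnf43 has 2 windows). Shown are those of the 2 genes whose window held a TCF-like word, and that of Nkd1, which rose under sh-Gls2 in OTC livers. The words searched on both strands were CTTTGAA or CTTTGAT, together with the forms whose sixth letter is T, namely CTTTGTA or else CTTTGTT; matches are printed in capitals below, and the words do not overlap each other in these windows. A word of this kind stood in 5544 of 32851 RefSeq windows of the same length (16.88%), so a match is only a description of the letters. Lect2 (chr13:56548489-56548788, minus strand) held 1 word, ATCAAAG, which is the reverse complement of CTTTGAT and began 32 bases before the annotated start. Sp5 (chr2:70474673-70474972, plus strand) held 2 words, beginning 222 and 104 bases before the start. The windows of Nkd1 (chr8:88527383-88527682, plus strand), Axin2 and Rnf43 held none of these words. Those of Nkd1 and Rnf43 lie inside the genes as placed above and do not cover the gene start given there.
Lect2: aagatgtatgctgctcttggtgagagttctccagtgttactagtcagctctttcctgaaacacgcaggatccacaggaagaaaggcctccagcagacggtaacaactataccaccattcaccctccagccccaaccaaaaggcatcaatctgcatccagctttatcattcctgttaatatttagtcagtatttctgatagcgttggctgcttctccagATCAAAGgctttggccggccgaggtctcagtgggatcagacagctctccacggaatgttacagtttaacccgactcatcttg
Sp5: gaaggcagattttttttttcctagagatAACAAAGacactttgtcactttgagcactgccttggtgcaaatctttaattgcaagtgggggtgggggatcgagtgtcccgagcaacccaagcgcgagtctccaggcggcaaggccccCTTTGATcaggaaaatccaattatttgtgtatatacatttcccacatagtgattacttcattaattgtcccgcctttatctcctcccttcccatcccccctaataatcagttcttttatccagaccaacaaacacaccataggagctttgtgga
Nkd1: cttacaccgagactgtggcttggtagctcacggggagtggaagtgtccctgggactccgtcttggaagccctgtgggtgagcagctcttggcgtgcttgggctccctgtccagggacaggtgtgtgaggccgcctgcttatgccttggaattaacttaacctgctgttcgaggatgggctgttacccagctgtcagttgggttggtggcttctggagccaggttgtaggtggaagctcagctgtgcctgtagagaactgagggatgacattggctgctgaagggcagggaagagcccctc

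Total counts lay between 14489866 and 22781052 per library. Otc averaged 61.2 ± 11.7 CPM (counts scaled to a common library size, with TMM factors) in OTC control livers (SD, n = 8) and 522 ± 38.5 CPM in WT control livers (SD, n = 10). Gls2 averaged 198 ± 23.9 CPM in OTC sh-Gls2 livers (n = 10), against 439 ± 84.4 CPM in OTC control livers (n = 8), and 204 ± 30.01 CPM in WT sh-Gls2 livers against 441 ± 67.2 CPM in WT control livers (n = 10 each). Glud1 averaged 444 ± 105 CPM in OTC sh-Glud1 livers against 1068 ± 121 CPM in OTC control livers (n = 8 each), and 386 ± 123 CPM in WT sh-Glud1 livers (n = 9) against 1035 ± 103 CPM in WT control livers (n = 10). The liver label fits the levels of 6 hepatocyte marker genes, whose sum lay between 71605 and 129314 CPM in the control groups. One library stood apart for the Wnt targets: OTC control mouse 03 was the lowest of 8 OTC control livers for 7 of the 9 genes. Called results of the targets against OTC control livers are therefore given with and without it. Of the other genes named below, Wnt2b (log2 fold change 0.85 between strains, edgeR adjusted p = 0.0701) and Ryk (-0.11 for sh-Gls2 in OTC, edgeR adjusted p = 0.124) lost their call without it. WT control mouse 13 stood apart too: Cyp2b13, a gene known for its expression in female mouse liver, had 153.7 CPM in it and at most 1.66 CPM in the rest of its group, and Hsd3b5, known for its expression in male liver, had 1.40 CPM in it and 81.2 to 270.2 CPM in the rest. It was the lowest WT control liver for Notum, with 12.1 CPM where the rest of its group had 14.4 to 19.9 CPM.

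Relative to length, the targets spanned a wide range. Lect2 had a mean of 156 TPM (the authors' length-corrected unit) over the 55 livers, Notum 10.7, Tbx3 8.33, Rnf43 7.29, Axin2 3.42, Znrf3 3.16, Lgr5 2.09, Nkd1 1.58 and Sp5 0.773 TPM. Lect2 lay at the 87.4th percentile of tested genes by mean CPM and Sp5 at the 10.8th. Sp5 rested on 4 to 39 reads per library, Nkd1 on 43 to 126 and Lgr5 on 50 to 232, so counting error is largest for these 3 genes. When the 6 group means of a gene were put in order, all 45 pairs of neighbouring groups over the 9 genes had overlapping ranges. In 4 of the 45 the gap between means exceeded the larger SD: OTC sh-Gls2 below OTC sh-Glud1 for Notum, OTC sh-Glud1 above WT sh-Glud1 for Znrf3, and OTC sh-Gls2 below WT sh-Gls2 and OTC sh-Glud1 below WT control for Lect2.

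**Figure D1:**
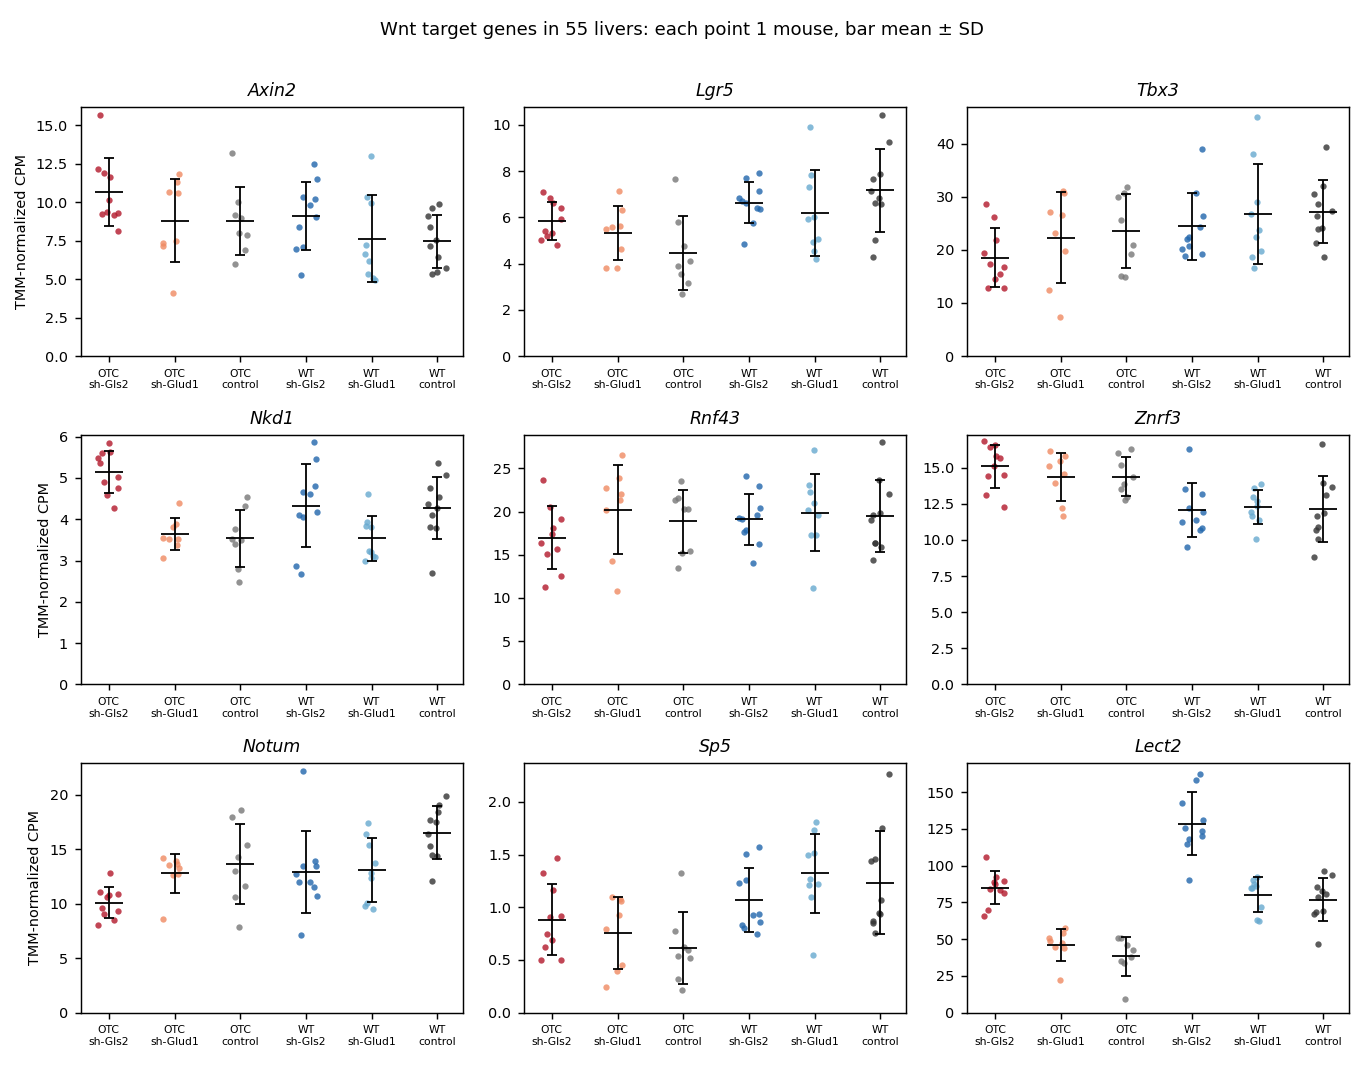
TMM-normalized CPM of the 9 Wnt targets in 55 livers, 1 panel per gene, with 1 point per mouse and the mean ± SD of each group (vertical axes start at 0). Within each strain the sh-Gls2 group has the highest mean of Lect2, and the OTC control liver of mouse 03 is the lowest Lect2 point, at 9.46 CPM.

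Under the control vector, OTC livers had lower Lect2, Lgr5 and Sp5 and slightly higher Znrf3 than WT livers. Lect2 was at 0.499 times, Lgr5 at 0.622 times and Sp5 at 0.504 times the WT level, and Znrf3 was at 1.18 times the WT level. These 4 of 9 genes passed edgeR's quasi-likelihood test (p adjusted by Benjamini-Hochberg for 13311 genes, threshold 0.05), which called 36.3% of all tested genes in this comparison, 19.9% higher and 16.4% lower. The median log2 fold change of the 9 genes was -0.27, against 0.02 for all tested genes. The share of called genes that were higher in OTC livers was 54.9% on counts and 77.5% on log2(TPM + 1), where the median of all tested genes stood at 0.10. In bulk liver, fewer cells of a type and less RNA per cell cannot be told apart.

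Lect2, the gene of a protein secreted by hepatocytes, ranged from 9.46 through a median of 40.3 to 50.9 CPM in OTC control livers, against 46.6, 79.7 and 96.1 CPM in WT control livers. All but 2 of the 8 OTC livers lay below the lowest WT liver, and the ranges overlapped at their edge. Its log2 fold change was -1.004 ± 0.17 (SE; edgeR adjusted p = 6.16e-06). Without OTC control mouse 03 it was -0.87 (edgeR adjusted p = 2.02e-06).

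The R-spondin receptor gene Lgr5 ranged from 2.70 through 4.01 to 7.67 CPM in OTC control livers, against 4.29, 6.99 and 10.4 CPM in WT control livers. Most OTC livers sat in the lower part of the WT range or under it, with 1 OTC liver above the WT median. The log2 fold change was -0.69 ± 0.16 (edgeR adjusted p = 0.000732), and -0.62 without mouse 03 (edgeR adjusted p = 0.00311). The transcription factor gene Sp5 was measured at 0.216, 0.567 and 1.33 CPM (lowest, median and highest) in OTC control livers, against 0.751, 1.01 and 2.27 CPM in WT control livers. Its log2 fold change was -0.99 ± 0.27 (edgeR adjusted p = 0.0033), and -0.88 without mouse 03 (edgeR adjusted p = 0.0115).

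Of the genes for brakes on the receptor and the pathway, Znrf3 moved the other way. Its levels were 12.8, 14.1 and 16.3 CPM (lowest, median, highest) in OTC control livers and 8.85, 11.8 and 16.7 CPM in WT control livers. The WT range enclosed the OTC range, while the OTC values clustered in its upper part. The log2 fold change of 0.24 ± 0.09 had an edgeR adjusted p of 0.0262, and of 0.0834 when only these 2 groups were fitted and 0.0614 without WT control mouse 13; without OTC control mouse 03 the log2 fold change was 0.26 (edgeR adjusted p = 0.0277). On log2(TPM + 1) Znrf3 stood at 0.27 while the median of all tested genes stood at 0.10. Its partner ligase gene Rnf43 had levels of 13.5 to 23.6 CPM in OTC control livers and 14.4 to 28.04 CPM in WT control livers (edgeR adjusted p = 0.824).

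The remaining 4 genes did not pass the test. Nkd1 averaged 3.54 ± 0.690 CPM in OTC control livers and 4.27 ± 0.755 CPM in WT control livers, a log2 fold change of -0.27 ± 0.12 (edgeR adjusted p = 0.0692). Notum averaged 13.7 ± 3.65 CPM in OTC control livers and 16.5 ± 2.46 CPM in WT control livers, a log2 fold change of -0.28 ± 0.14 (edgeR adjusted p = 0.121). Axin2 averaged 8.76 ± 2.21 CPM in OTC control livers and 7.47 ± 1.73 CPM in WT control livers, a log2 fold change of 0.23 ± 0.18 (edgeR adjusted p = 0.342). Axin2 is often used as the general readout of Wnt signalling, and its group ranges overlapped. Tbx3, which encodes a T-box repressor, had a log2 fold change of -0.21 ± 0.21 (edgeR adjusted p = 0.445).

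**Figure D2:**
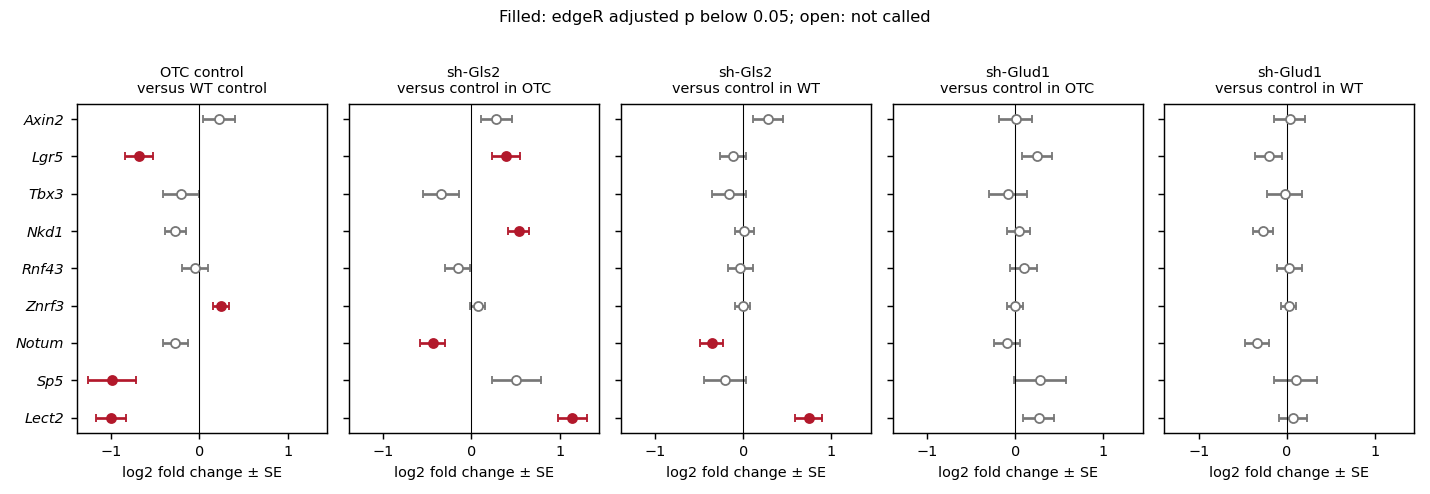
Log2 fold change ± SE of each Wnt target (rows) in 5 comparisons (panels), from the edgeR fit over 55 libraries. Filled red points passed an adjusted p below 0.05: Lgr5, Znrf3, Sp5 and Lect2 in OTC control against WT control, Lgr5, Nkd1, Notum and Lect2 for sh-Gls2 in OTC, Notum and Lect2 for sh-Gls2 in WT, and none of the 9 genes for sh-Glud1.

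In OTC mice, sh-Gls2 livers had higher Lect2, Nkd1 and Lgr5 and lower Notum than control livers. Lect2 was at 2.21 times, Nkd1 at 1.45 times, Lgr5 at 1.32 times and Notum at 0.738 times the control level. The 4 of 9 genes called stand beside 42.7% of all tested genes called in this comparison, 20.2% higher and 22.6% lower. The median log2 fold change of the 9 genes was 0.28, against -0.02 for all tested genes. Markers of other liver cells rose in the same comparison, 9 of 10 Kupffer cell genes and 9 of 12 endothelial genes among them, and their part in these results was not tested.

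Lect2 was measured at 65.9, 85.7 and 106 CPM (lowest, median, highest) in OTC sh-Gls2 livers, against 9.46, 40.3 and 50.9 CPM in OTC control livers. Every sh-Gls2 liver was above every control liver; ranges were apart for 6.74% of all tested genes. The log2 fold change was 1.15 ± 0.17 (edgeR adjusted p = 2.73e-07), and 0.999 without OTC control mouse 03 (edgeR adjusted p = 3.94e-08).

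Nkd1 ranged from 4.27 through 5.19 to 5.85 CPM in OTC sh-Gls2 livers, against 2.49, 3.504 and 4.54 CPM in OTC control livers. The ranges overlapped only at their edge. Its log2 fold change was 0.54 ± 0.12 (edgeR adjusted p = 0.000248), and 0.48 without mouse 03 (edgeR adjusted p = 0.00123).

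Notum, the gene of the secreted Wnt-inactivating enzyme, had 8.06, 10.1 and 12.8 CPM in OTC sh-Gls2 livers, against 7.89, 13.6 and 18.6 CPM in OTC control livers. The sh-Gls2 livers lay in the lower part of the control range. The log2 fold change was -0.44 ± 0.14 (edgeR adjusted p = 0.0106), and -0.52 without mouse 03 (edgeR adjusted p = 0.00228). Lgr5 had 4.82, 5.67 and 7.10 CPM in OTC sh-Gls2 livers, inside the range of 2.70, 4.01 and 7.67 CPM in OTC control livers. Its log2 fold change of 0.40 ± 0.16 had an edgeR adjusted p of 0.0434, which became 0.119 without mouse 03 and 0.202 without mice 03 and 67. Leaving out 1 library at a time ended this call for 10 of 18 libraries, so it rested on a narrow margin.

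Sp5 averaged 0.883 ± 0.340 CPM in OTC sh-Gls2 livers and 0.613 ± 0.338 CPM in OTC control livers, a log2 fold change of 0.51 ± 0.28 (edgeR adjusted p = 0.132). Leaving out OTC control mouse 72 moved it to 0.78 (edgeR adjusted p = 0.0228). Axin2 stood at 0.28 ± 0.18 (edgeR adjusted p = 0.204), Tbx3 at -0.34 ± 0.21 (edgeR adjusted p = 0.178) and Rnf43 at -0.16 ± 0.15 (edgeR adjusted p = 0.406) on the log2 scale. Znrf3 averaged 15.1 ± 1.52 CPM in OTC sh-Gls2 livers and 14.4 ± 1.35 CPM in OTC control livers (edgeR adjusted p = 0.545).

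In WT mice, sh-Gls2 livers had higher Lect2 and lower Notum than control livers, at 1.67 times and 0.780 times the control level. These 2 of 9 genes stand beside 34.8% of all tested genes called, 17.6% higher and 17.2% lower. The median log2 fold change of the 9 genes was -0.03, against -0.01 for all tested genes. Here too 8 of 10 Kupffer cell genes and 2 of 12 endothelial genes rose, and their part was not tested.

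Lect2 had 90.1, 124 and 162 CPM in WT sh-Gls2 livers, against 46.6, 79.7 and 96.1 CPM in WT control livers. All but the lowest sh-Gls2 liver exceeded the highest control liver. The log2 fold change was 0.74 ± 0.16 (edgeR adjusted p = 0.000156), and leaving out any 1 library kept it between 0.67 and 0.78. Notum had 7.11, 12.4 and 22.2 CPM in WT sh-Gls2 livers, against 12.1, 16.9 and 19.9 CPM in WT control livers. The highest value of both groups belonged to a sh-Gls2 liver, mouse 79, although the group median lay below that of the control livers. Its log2 fold change of -0.36 ± 0.13 had an edgeR adjusted p of 0.0317, and the call was lost when WT control mouse 77 or 19 or WT sh-Gls2 mouse 45 or 30 was left out (edgeR adjusted p up to 0.0762). Under sh-Glud1 in WT, Notum stood at -0.34 against control without a call (edgeR adjusted p = 0.896).

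The other 7 genes were not called in WT livers. Axin2 averaged 9.12 ± 2.22 CPM in WT sh-Gls2 livers and 7.47 ± 1.73 CPM in WT control livers, a log2 fold change of 0.28 ± 0.17 (edgeR adjusted p = 0.205). Nkd1, which rose in OTC livers, averaged 4.33 ± 1.01 CPM in WT sh-Gls2 livers and 4.27 ± 0.755 CPM in WT control livers. Lgr5 averaged 6.63 ± 0.892 CPM in WT sh-Gls2 livers and 7.16 ± 1.803 CPM in WT control livers. Sp5 averaged 1.07 ± 0.302 CPM in WT sh-Gls2 livers and 1.23 ± 0.488 CPM in WT control livers.

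A test of the difference between strains in the sh-Gls2 effect called none of the 9 genes, beside 0.338% of all tested genes. At an unadjusted p below 0.05 there were 2 of the 9 by edgeR, beside 11.2% of all tested genes, and 3 by DESeq2. No other tool run called any of them. The smallest adjusted p among the 9 genes was 0.0921 by the DESeq2 Wald test. By limma on log2(TPM + 1) it was 0.158 among the 8 genes tested there, as Sp5 fell below the TPM filter. The effect on Nkd1 was larger in OTC than in WT livers by 0.53 ± 0.16 on the log2 scale (edgeR adjusted p = 0.156), that on Lgr5 by 0.51 ± 0.22 (edgeR adjusted p = 0.367), that on Sp5 by 0.72 ± 0.37 (edgeR adjusted p = 0.461) and that on Lect2 by 0.41 ± 0.23 (edgeR adjusted p = 0.506). Calls in OTC that were absent in WT are thus not shown to differ between strains.

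The Glud1 hairpin moved none of the 9 genes past the threshold in either strain. Only 0.015% of all tested genes were called for sh-Glud1 in OTC livers and 0.0225% in WT livers. At an unadjusted edgeR p below 0.05 there were 0 of 9 genes in OTC and 2 of 9 in WT, beside 4.8% and 5.24% of all tested genes, and the DESeq2 Wald test called none of the 9 either. Limma on TPM, which tested 8 of them without Sp5, called none. The 2 genes in WT were Nkd1, which averaged 3.53 ± 0.546 CPM in WT sh-Glud1 livers and 4.27 ± 0.755 CPM in WT control livers (log2 fold change -0.27 ± 0.12, edgeR adjusted p = 0.930), and Notum, which averaged 13.1 ± 2.93 CPM in WT sh-Glud1 livers and 16.5 ± 2.46 CPM in WT control livers (log2 fold change -0.34 ± 0.14, edgeR adjusted p = 0.896). Lect2 averaged 46.1 ± 10.8 CPM in OTC sh-Glud1 livers and 38.3 ± 13.4 CPM in OTC control livers, a log2 fold change of 0.27 ± 0.17 (edgeR adjusted p = 0.988), and 80.3 ± 11.7 CPM in WT sh-Glud1 livers against 76.9 ± 14.7 CPM in WT control livers. The difference between strains in the sh-Glud1 effect was called for none of the 9 genes and for 0% of all tested genes by edgeR, with 0 of 9 at an unadjusted p below 0.05, beside 3.13% of all tested genes, and 0 calls by DESeq2.

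Set against each other, the hairpins differed for Lect2 in both strains. In OTC livers Lect2 had 65.9, 85.7 and 106 CPM under sh-Gls2, against 21.9, 48.0 and 57.5 CPM under sh-Glud1, with ranges apart (as for 6.36% of all tested genes) and a log2 fold change of 0.88 ± 0.17 (edgeR adjusted p = 3.26e-05). Nkd1 had 4.27, 5.19 and 5.85 CPM under sh-Gls2 and 3.06, 3.54 and 4.38 CPM under sh-Glud1, a log2 fold change of 0.50 ± 0.12 (edgeR adjusted p = 0.000677). Notum was lower under sh-Gls2, with 8.06, 10.1 and 12.8 CPM against 8.59, 13.4 and 14.2 CPM under sh-Glud1. Its log2 fold change of -0.34 ± 0.14 had an edgeR adjusted p of 0.0475, and leaving out 1 library ended the call in 14 of 18 cases. These 3 of 9 genes stand beside 40.5% of all tested genes called in OTC. In WT livers, where 29.6% of all tested genes were called, 1 of the 9 genes was, Lect2, with 90.1, 124 and 162 CPM under sh-Gls2 against 62.1, 84.5 and 92.5 CPM under sh-Glud1 (log2 fold change 0.68 ± 0.16, edgeR adjusted p = 0.000852). Each of these comparisons shares its sh-Gls2 livers with the comparison against control.

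The strain difference was also read within each hairpin. Under sh-Gls2, where 29.5% of all tested genes were called, OTC livers had lower Lect2 (-0.60 ± 0.15, edgeR adjusted p = 0.00272), higher Znrf3 (0.32 ± 0.08, edgeR adjusted p = 0.00286) and lower Notum (-0.36 ± 0.14, edgeR adjusted p = 0.0404) than WT livers, as log2 fold changes. Lect2 had 65.9, 85.7 and 106 CPM in OTC sh-Gls2 livers and 90.1, 124 and 162 CPM in WT sh-Gls2 livers. The Notum difference moved to -0.24 (edgeR adjusted p = 0.154) without WT sh-Gls2 mouse 79, and to -0.16 on log2(TPM + 1) (limma adjusted p = 0.297). Nkd1 stood at 0.25 in this comparison (edgeR adjusted p = 0.0778), and on log2(TPM + 1) it was called at 0.26 (limma adjusted p = 0.00349). Under sh-Glud1, where 35% were called, OTC livers had lower Lect2 (-0.80 ± 0.17, edgeR adjusted p = 0.00025), lower Sp5 (-0.81 ± 0.27, edgeR adjusted p = 0.0166) and higher Znrf3 (0.22 ± 0.09, edgeR adjusted p = 0.0485) than WT livers. Lect2 ranges were apart there, 21.9 to 57.5 CPM in OTC sh-Glud1 livers against 62.1 to 92.5 CPM in WT sh-Glud1 livers, as for 4.88% of all tested genes. The Znrf3 call under sh-Glud1 was lost in 13 of 17 omissions of 1 library. Lgr5, lower in OTC livers under the control vector, was called under neither hairpin. Its log2 fold change was -0.18 under sh-Gls2 (edgeR adjusted p = 0.382) and -0.23 under sh-Glud1 (edgeR adjusted p = 0.291). Sp5 was not called under sh-Gls2 (-0.27, edgeR adjusted p = 0.421). Lect2 and Znrf3 were thus called by edgeR in the same direction between strains under all 3 vectors, and kept that direction on TPM. On counts Axin2 (higher in OTC) and Lgr5, Tbx3, Notum and Sp5 (lower) also kept 1 direction, but none of them was called under all 3. The share of called genes that were higher in OTC livers was 49.3% on counts and 85.0% on log2(TPM + 1) under sh-Gls2, where the TPM median of all tested genes stood at 0.12, and 56.8% and 85.5% under sh-Glud1, where it stood at 0.15.

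The genes that deliver and receive the Wnt signal were read from lists of the pathway. Of 25 ligand and ligand-processing genes, 10 were expressed enough to test. Under sh-Gls2, 5 of these 10 rose and 1 fell in OTC livers, with a median log2 fold change of 0.39, and 5 rose and 2 fell in WT livers, with a median of 0.20; the medians of all tested genes were -0.02 and -0.01. The shares called were 60% in OTC and 70% in WT, beside 42.7% and 34.8% of all tested genes. Between strains under the control vector 2 of 10 were higher and 1 was lower in OTC livers (30%, beside 36.3% of all tested genes). Against sh-Glud1 instead of control, 5 of 10 were higher and 1 lower under sh-Gls2 in OTC (median 0.34), and 2 were higher and 1 lower in WT (median 0.04). These shares of 60% and 30% stand beside 40.5% and 29.6% of all tested genes.

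Rspo3, the R-spondin of the central vein, had 5.15, 8.36 and 8.79 CPM (lowest, median, highest) in OTC sh-Gls2 livers, against 4.28, 6.15 and 6.96 CPM in OTC control livers. In WT mice it had 5.23, 6.08 and 7.03 CPM in sh-Gls2 livers, against 4.14, 5.00 and 5.75 CPM in control livers. Most sh-Gls2 livers exceeded the control range of their strain, and the log2 fold changes were 0.47 ± 0.10 in OTC (edgeR adjusted p = 0.000106) and 0.31 ± 0.09 in WT (edgeR adjusted p = 0.00878).

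Wnt2, a Wnt of liver endothelium, had 2.93, 4.46 and 5.08 CPM in OTC sh-Gls2 livers, against 2.06, 3.04 and 3.51 CPM in OTC control livers, a log2 fold change of 0.50 ± 0.16 (edgeR adjusted p = 0.00966). In WT mice it had 1.98, 3.58 and 4.67 CPM in sh-Gls2 livers, against 1.44, 2.60 and 3.41 CPM in control livers, a log2 fold change of 0.45 ± 0.15 (edgeR adjusted p = 0.0178). Wnt9b, the Wnt of the central vein, rose by 0.68 ± 0.21 in OTC (edgeR adjusted p = 0.00803) and 0.69 ± 0.21 in WT (edgeR adjusted p = 0.00899) on the log2 scale, at 0.324 to 2.37 CPM over the 4 groups. Against control, 3 ligand genes of the central vein thus rose in both strains. Axin2 was not called in either, at 0.28 ± 0.18 in OTC and 0.28 ± 0.17 in WT, and its difference from the ligand genes was not tested. Set against sh-Glud1 in WT, Rspo3 was higher under sh-Gls2 (log2 fold change 0.32 ± 0.10, edgeR adjusted p = 0.00816). Wnt2 averaged 3.503 ± 0.734 CPM in WT sh-Gls2 livers and 3.36 ± 0.730 CPM in WT sh-Glud1 livers (edgeR adjusted p = 0.804), and Wnt9b was not called either (0.33 ± 0.21, edgeR adjusted p = 0.258).

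**Figure D3:**
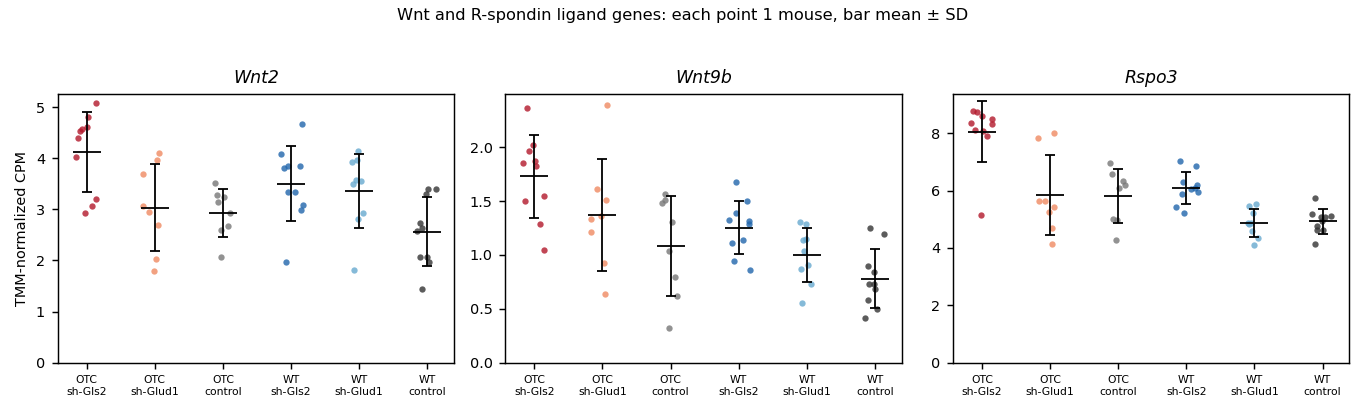
TMM-normalized CPM of the ligand genes Wnt2, Wnt9b and Rspo3 in the 6 groups, with 1 point per mouse and the mean ± SD. Within each strain the sh-Gls2 group has the highest mean, for example 8.06 CPM of Rspo3 in OTC sh-Gls2 livers against 5.81 CPM in OTC control livers.

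Genes for the secretion of Wnt proteins split. Wls, which carries Wnt proteins to the cell surface, rose by 0.50 ± 0.11 under sh-Gls2 in OTC (edgeR adjusted p = 0.000348). Porcn, which puts the lipid on Wnt proteins, fell by 1.12 ± 0.16 on the log2 scale under sh-Gls2 in OTC (edgeR adjusted p = 8.74e-08) and by 0.53 ± 0.16 in WT (edgeR adjusted p = 0.00812). Porcn had 4.22, 4.95 and 13.5 CPM in OTC control livers, against 1.82, 2.63 and 3.09 CPM in WT control livers; every OTC liver was above every WT liver, as was the case in one direction or the other for 3.41% of all tested genes. The strain log2 fold change was 1.30 ± 0.16 (edgeR adjusted p = 9.2e-09). Wnt5a, a Wnt that acts mainly without beta-catenin, had 1.09, 1.41 and 2.14 CPM in OTC control livers against 2.10, 3.25 and 4.57 CPM in WT control livers (log2 fold change -1.16 ± 0.21, edgeR adjusted p = 2.74e-05). It fell by 0.84 ± 0.20 under sh-Gls2 in WT (edgeR adjusted p = 0.000615), where Wnt5b rose by 0.74 ± 0.22 (edgeR adjusted p = 0.00739). Wnt2b was higher in OTC control than in WT control livers by 1.05 ± 0.35 (edgeR adjusted p = 0.0161).

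Of 17 receptor genes, 12 were tested. Under the control vector 3 of 12 (25%) were called, beside 36.3% of all tested genes, all 3 of them lower in OTC than in WT livers: the Frizzled genes Fzd7 (log2 fold change -0.59 ± 0.16, edgeR adjusted p = 0.00353) and Fzd8 (-0.49 ± 0.15, edgeR adjusted p = 0.00838) and the receptor tyrosine kinase gene Ror1 (-0.43 ± 0.15, edgeR adjusted p = 0.0232). Under sh-Gls2 in OTC, 2 rose, Fzd6 (0.42 ± 0.14, edgeR adjusted p = 0.0141) and the co-receptor gene Lrp5 (0.20 ± 0.07, edgeR adjusted p = 0.0216), and 2 fell, among them Ryk (-0.21 ± 0.07, edgeR adjusted p = 0.0121). In WT, 1 fell under sh-Gls2, the co-receptor gene Lrp6 (-0.21 ± 0.06, edgeR adjusted p = 0.00791). The shares of receptor genes called, 33.3% in OTC and 8.33% in WT, lie below the 42.7% and 34.8% of all tested genes. Of 16 genes of secreted or membrane antagonists, 7 were tested and none was called between strains, where 3 of 7 had an unadjusted p below 0.05 and edgeR was the test. Under sh-Gls2, Dkk3 rose by 0.59 ± 0.18 in OTC (edgeR adjusted p = 0.00533) and 0.45 ± 0.17 in WT (edgeR adjusted p = 0.0361). The calls of Ror1, Ryk and Lrp5, of Dkk3 in WT and of Kremen1 in OTC were each lost in some alternatives, as was that of Wnt2b. Kremen1, a Dickkopf receptor, fell by 0.18 ± 0.06 in OTC (edgeR adjusted p = 0.0161) and by 0.33 ± 0.06 in WT (edgeR adjusted p = 9.7e-06).

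Inside the cell, changes were small and in both directions. Of 20 tested genes of the destruction complex and its regulators, 5 rose and 5 fell under sh-Gls2 in OTC and 3 rose and 3 fell in WT, while 5 were higher and 2 lower in OTC control than in WT control livers. These shares of 50%, 30% and 35% lie near the 42.7%, 34.8% and 36.3% of all tested genes called. Ctnnb1, the beta-catenin gene, fell by 0.36 ± 0.05 under sh-Gls2 in OTC (edgeR adjusted p = 5.41e-08) and by 0.29 ± 0.05 in WT (edgeR adjusted p = 1.32e-06). Usp34, a deubiquitinase of axin, fell by 0.34 ± 0.05 in OTC (edgeR adjusted p = 6.23e-08) and by 0.40 ± 0.04 in WT (edgeR adjusted p = 1.84e-10). Fbxw11, an F-box protein that marks beta-catenin for degradation, rose by 0.34 ± 0.04 in OTC (edgeR adjusted p = 7.33e-10) and 0.23 ± 0.04 in WT (edgeR adjusted p = 2.27e-06). Between strains the kinase gene Gsk3a was higher by 0.20 ± 0.04 (edgeR adjusted p = 0.000356) and Dvl1, a Dishevelled gene, by 0.30 ± 0.08 (edgeR adjusted p = 0.00184) in OTC control than in WT control livers.

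Of 14 tested genes of TCF proteins and their cofactors, 1 rose and 5 fell under sh-Gls2 in OTC, 1 rose and 4 fell in WT, and 4 were higher and 2 lower between strains. The shares of 42.9%, 35.7% and 42.9% lie near those of all tested genes. The Groucho-type corepressor gene Tle2 fell by 0.59 ± 0.11 in OTC (edgeR adjusted p = 2.34e-05) and by 0.56 ± 0.10 in WT (edgeR adjusted p = 3.21e-05), while Tle4 rose by 0.41 ± 0.11 in OTC (edgeR adjusted p = 0.00182) and 0.54 ± 0.10 in WT (edgeR adjusted p = 3.38e-05). The short family member Aes fell by 0.18 ± 0.05 in OTC (edgeR adjusted p = 0.00101) and by 0.19 ± 0.04 in WT (edgeR adjusted p = 0.00032). In OTC control livers Aes stood at -0.27 ± 0.05 (edgeR adjusted p = 5.86e-06), Tle3 at -0.68 ± 0.16 (edgeR adjusted p = 0.00083) and Tcf7l1 at 0.41 ± 0.11 (edgeR adjusted p = 0.00339) relative to WT control livers on the log2 scale.

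Pericentral genes outside the 9 targets were mostly lower in OTC control livers. Of 15, 11 were lower and 2 higher in OTC control than in WT control livers, with a median log2 fold change of -0.67. Under sh-Gls2 8 rose and none fell in OTC (median 0.40), and 3 rose and 1 fell in WT (median 0.31). The shares called were 86.7%, 53.3% and 26.7%, beside 36.3%, 42.7% and 34.8% of all tested genes. Rhbg, an ammonia channel gene, had 0.892, 1.20 and 2.14 CPM in OTC control livers, against 4.196, 5.26 and 10.7 CPM in WT control livers, with ranges apart and a log2 fold change of -2.15 ± 0.20 (edgeR adjusted p = 2.05e-11). It rose under sh-Gls2 by 2.34 ± 0.20 in OTC (edgeR adjusted p = 1.21e-13) and 1.18 ± 0.16 in WT (edgeR adjusted p = 8.9e-08).

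Slc13a3, a dicarboxylate transporter gene, had 22.0, 31.2 and 33.5 CPM in OTC sh-Gls2 livers, against 1.89, 5.24 and 12.1 CPM in OTC control livers, and rose by 2.38 ± 0.21 (edgeR adjusted p = 2.93e-13). In WT livers it rose by 0.94 ± 0.18 (edgeR adjusted p = 4.96e-05). The sh-Gls2 effect was larger in OTC than in WT by 1.17 ± 0.26 for Rhbg (edgeR adjusted p = 0.0249) and 1.44 ± 0.27 for Slc13a3 (edgeR adjusted p = 0.00508). This strain difference was called for 2 of the 15 pericentral genes (13.3%), beside 0.338% of all tested genes. How these 2 calls fared under the alternatives is not given here. The number of all tested genes called ran from 10 (without OTC control mice 03 and 67) to 84 (DESeq2 Wald test). Glul, the glutamine synthetase gene, did not rise under sh-Gls2 in either strain. It had 92.3, 324 and 473 CPM in OTC control livers, against 465, 681 and 907 CPM in WT control livers (log2 fold change -1.19 ± 0.24, edgeR adjusted p = 0.000115). Under sh-Gls2 it averaged 301 ± 102 CPM in OTC livers against 302 ± 127 CPM in OTC control livers (edgeR adjusted p = 0.990), and it fell by 0.62 ± 0.22 in WT (edgeR adjusted p = 0.0248).

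Genes of the portal side and other known Wnt targets were read in the same way. Of 13 periportal genes, 7 were higher and 2 lower in OTC control than in WT control livers (median 0.42). Under sh-Gls2 2 of them rose and 4 fell in OTC (median -0.35), and 1 rose and none fell in WT (median -0.07). The shares called were 69.2%, 46.2% and 7.69%, beside 36.3%, 42.7% and 34.8% of all tested genes. Pck1, a gluconeogenic enzyme gene, was higher in OTC control livers by 1.42 ± 0.24 (edgeR adjusted p = 6.86e-06). Asl was higher there too (log2 fold change 1.26, edgeR adjusted p = 1.71e-05), while Cyp2f2 of the same list was lower (-0.72, edgeR adjusted p = 8.84e-05). The urea cycle genes Arg1 and Cps1 fell by 0.70 ± 0.15 (edgeR adjusted p = 0.000189) and by 0.53 ± 0.12 (edgeR adjusted p = 0.000493) under sh-Gls2 in OTC. The sizes of these results depended on the setting, though each stayed called in all alternatives. Between strains Pck1 ran from 0.83 to 1.42 and Asl from 0.62 to 1.26. For sh-Gls2 in OTC, Arg1 ran from -0.71 to -0.35 and Cps1 from -0.54 to -0.30. Of 15 Wnt targets known from other tissues, 9 were tested. In OTC control livers 2 were higher and 1 lower than in WT control livers (33.3%, beside 36.3% of all tested genes). Under sh-Gls2 2 of the 9 (22.2%) rose in each strain, a smaller share than the 42.7% in OTC and 34.8% in WT of all tested genes: the cell cycle gene Ccnd1, by 2.73 ± 0.33 in OTC (edgeR adjusted p = 2.3e-09) and 1.65 ± 0.29 in WT (edgeR adjusted p = 1.09e-05), and the adhesion receptor gene Cd44, by 0.85 ± 0.22 in OTC (edgeR adjusted p = 0.00153) and 0.79 ± 0.21 in WT (edgeR adjusted p = 0.00235). Under sh-Glud1 no gene of any list was called in either strain by edgeR.

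**Figure D4:**
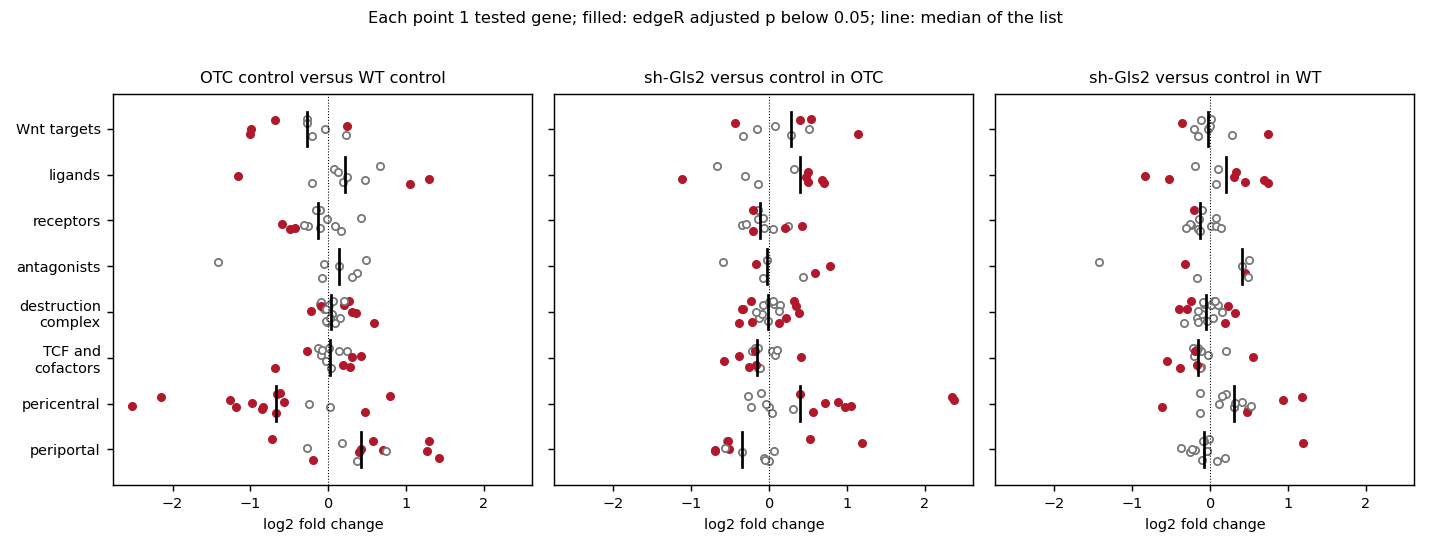
Log2 fold change of each tested gene (points) in 8 gene lists (rows) for 3 comparisons (panels), with filled red points at an edgeR adjusted p below 0.05 and a black line at the median of the list. The pericentral row has its median at -0.67 in OTC control against WT control and at 0.40 for sh-Gls2 in OTC, while the medians of the destruction complex row are 0.03 and -0.01 there.

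Markers of other liver cells moved with the sh-Gls2 comparisons, in which 20.2% of all tested genes were called higher in OTC and 17.6% in WT. Of 10 Kupffer cell genes, 9 rose in OTC and 8 in WT; their summed level was 203 to 354 CPM in OTC sh-Gls2 against 110 to 242 CPM in OTC control livers, and 183 to 287 CPM in WT sh-Gls2 against 128 to 214 CPM in WT control livers. Of 12 endothelial genes, 9 rose in OTC and 2 in WT, with sums of 342 to 474 CPM in OTC sh-Gls2, 265 to 386 CPM in OTC control, 322 to 413 CPM in WT sh-Gls2 and 268 to 417 CPM in WT control livers. Of 7 central-vein endothelial genes, which include Wnt2, Wnt9b and Rspo3, 5 rose in each strain, with sums of 28.8 to 42.8 CPM in OTC sh-Gls2, 23.6 to 34.04 CPM in OTC control, 27.9 to 36.5 CPM in WT sh-Gls2 and 18.98 to 34.4 CPM in WT control livers.

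Of 10 stellate cell genes, 7 rose in OTC and 5 in WT, with sums of 393 to 566 CPM in OTC sh-Gls2, 287 to 377 CPM in OTC control, 307 to 501 CPM in WT sh-Gls2 and 287 to 380 CPM in WT control livers. Of 8 proliferation genes, 7 rose in OTC and 8 in WT, with sums of 5.89 to 43.9 CPM in OTC sh-Gls2, 3.51 to 5.27 CPM in OTC control, 10.9 to 63.4 CPM in WT sh-Gls2 and 2.97 to 9.60 CPM in WT control livers. Of 5 tested bile duct genes 1 rose in each strain, and of 7 lymphocyte genes none was called by edgeR, with 0 in OTC and 2 in WT at an unadjusted p below 0.05. No marker of these lists was at 0 in all livers of a group. The part of these cell types in the levels of the Wnt targets and ligands was not tested.

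Between strains under the control vector, 1 of 10 Kupffer cell genes was higher, 1 of 12 endothelial genes lower, 1 of 7 central-vein genes higher (Thbd, thrombomodulin, by 0.74 ± 0.17, edgeR adjusted p = 0.000417), and 2 of 10 stellate genes were higher and 3 lower in OTC livers. Of 8 proliferation genes 3 were lower (median of the list -0.92), of 5 bile duct genes 1 was higher, and of 7 lymphocyte genes none was called by edgeR, with 0 at an unadjusted p below 0.05. Of all tested genes, 19.9% were called higher and 16.4% lower in this comparison.

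Across mice of the same group, most pairs of targets were positively correlated. After group means were taken off log2 CPM, 34 of the 36 pairs of targets had a positive Pearson correlation over the 55 livers, with a median r of 0.35 and a range from -0.07 to 0.65. Over all pairs of the 13311 tested genes the median r was -0.001 and 49.8% were positive, against 94.4% for the targets, which were chosen as genes of 1 pathway. Of the 36, 21 had a permutation p (100000 resamples within groups, two-sided) that stayed below 0.05 after Benjamini-Hochberg adjustment, and all 21 were positive. The highest was Axin2 with Tbx3, with r = 0.65 and rho = 0.60 (permutation p = 1e-05 for each, the smallest the resamples can give; adjusted p = 0.00036 for each), r = 0.53 without the 2 livers farthest from the median of Axin2, and r between 0.23 and 0.85 within the 6 groups. Lgr5 with Lect2 had r = 0.56 (adjusted permutation p = 0.00115) and rho = 0.50 (adjusted permutation p = 0.00156), r = 0.54 without the 2 farthest livers, and a positive r within 5 of the 6 groups. Znrf3 had r = -0.07 with Tbx3 (adjusted permutation p = 0.670), the lowest of the 36. All genes of a liver share 1 library, so depth and RNA quality are common to the points.

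**Figure D5:**
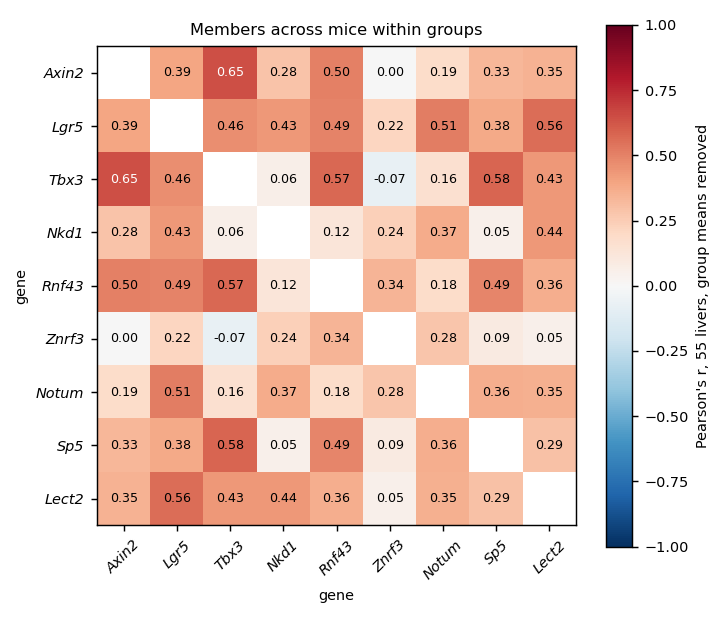
Pearson's r between each pair of Wnt targets over 55 livers after removal of the group means of log2 CPM; red is positive and blue negative. Axin2 with Tbx3 has the highest value, 0.65, and Tbx3 with Znrf3 the lowest, -0.07.

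The genes most like each target in these deviations were sought among 10831 genes whose mean log2 CPM was 1 or more, over the 55 livers, and are given as a description. For Lect2 they included Bdh1 (r = 0.85, rho = 0.60) and Akr1c6 (r = 0.84, rho = 0.62). For Lgr5 they included Slc13a3 (r = 0.54, with a lower rho of 0.37) and Rin3 (r = 0.53, rho = 0.55). For Notum they were Habp2 (r = 0.64), Gulo (r = 0.62), an enzyme gene of the pericentral list, and Fam43a (r = 0.61), and for Nkd1 Tgfbi (r = 0.62), Ntn1 (r = 0.59) and Hgf (r = 0.53). Axin2 was most like Ly6e (r = 0.62), the co-receptor gene Lrp5 (r = 0.57) and Trim25 (r = 0.57). The remaining 4 targets had as their nearest genes Fam110a for Tbx3 (r = 0.67), Iffo2 for Rnf43 (r = 0.72), Sos2 for Znrf3 (r = 0.68) and Zfp667 for Sp5 (r = 0.59).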

How the data were processed

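Liver RNA of 55 male mice was sequenced from strand-specific, mRNA-selected libraries, per the labels' protocols. The deposited tables hold raw whole-number read counts for each symbol and, separately, TPM values made by the authors, whose columns summed to between 999999 and 1000000. The submitters' processing notes name CASAVA 1.8.2, FastQC and GRCm38; aligner, counter, strand setting and annotation: not given in the sources used here. Columns were matched to samples by mouse number and group; 1 OTC control column carries a mouse number that no title has and was used as an unnumbered OTC control. The labels name no batch. Each of 227 library pairs within groups differed beyond sampling noise (lowest chi-square per degree of freedom 10.7).

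From the counts, edgeR 4.0.16 in R 4.3.3 kept 13311 genes (filterByExpr, minimum count 10, minimum total 15), scaled by TMM (factors 0.924 to 1.12) and fitted 1 quasi-likelihood model over the 6 groups. All tests were two-sided, and p-values were adjusted by Benjamini-Hochberg over all tested genes. SD is between mice; SE is of the log2 fold change. Log2 fold changes smaller than their SE are not printed. Alternatives were DESeq2 1.42.0 (size factors and Wald test), other filters, fits of the compared groups only, limma 3.58.1 on log2 TPM with a pseudocount of 1 or 0.1 (mean TPM 1 or more), and fits without 1 or several libraries. Sp5, with a mean of 0.773 TPM, was not tested by limma. Reads carry no molecular identifiers, so counting error is a lower limit. The procedure was tested on simulated counts. Outside the 9 targets, up to 3 called genes of smallest adjusted p per list and comparison were eligible to be named; Wnt2 in WT and Glul were named after their values were seen. Permutation p-values for pairs of targets, drawn within groups, were added after the data were seen. The 9 targets, the gene lists and the alternatives were chosen with earlier results of these data known. One gene that this rule and the likeness ranking named is not reported here.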

Additional observations from a re-analysis of the deposited data

Results flagged for a closer look

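In 54 sets of 8 to 10 livers (9 targets by 6 groups), the gap of the highest or lowest liver to its neighbour was compared with Dixon's 95% critical value, which chance exceeds in about 1 set in 20. It was exceeded in 4 of the 54. Lect2 in OTC sh-Glud1 mouse 58 was 21.9 CPM, and the next liver of that group was at 43.995 CPM. Lect2 in OTC control mouse 03 was 9.46 CPM, and the next liver was at 33.9 CPM. Notum in OTC sh-Glud1 mouse 33 was 8.59 CPM, and the next liver was at 12.7 CPM. Notum in WT sh-Gls2 mouse 79 was 22.2 CPM, above the next liver at 13.95 CPM. Mouse 58 was the lowest OTC sh-Glud1 liver for 4 of the 9 targets, and mouse 03 the lowest OTC control liver for 7.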

How the results depend on the processing

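Alternatives were counted only for the 56 results of a target whose log2 fold change was at least its SE. Results near no change, which reverse most easily, were thus left out beforehand. Of 457 values of these results under the alternatives, 15 lost and 2 gained the call and none reversed. Of 1160 values with 1 library left out, 57 lost and 11 gained it and none reversed. The narrow calls were Lgr5 and Notum for sh-Gls2 and Znrf3 and Notum between strains. The number of genes whose sh-Gls2 effect differed between strains was least stable: 45, against 24 with no filter, 84 by the DESeq2 Wald test, 19 with only the groups compared, 21 and 23 by limma on log2(TPM + 1) and log2(TPM + 0.1), 10 without OTC control mice 03 and 67, 12 if WT control mouse 13 was dropped as well, and 15 to 64 with 1 library left out (15 without OTC control mouse 35, 17 without mouse 03). The 2 genes called for sh-Glud1 in OTC became 1 with only the groups compared. The cause was not tested. Sp5, at 4 to 39 reads per library, had the fewest reads of the 9 targets. No paired analysis was possible because each mouse number belongs to 1 mouse and no number is shared across groups.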
